A study of Homo sapiens with 9 samples.

Results

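DNA replication and repair genes were examined in EA.hy926 cells, an established human line made by fusing umbilical vein endothelial cells with A549 lung carcinoma cells, after exposure to silver nanoparticles. The genes were taken by symbol, as the families of origin licensing and helicase proteins, the fork proteins, the enzymes of nucleotide supply, and the recombination, mismatch repair and XRCC families. In all 46 of the 14884 named genes matched, and 45 of these were tested, among 12155 tested genes in all. A gene was tested when the brightest of its probe sets reached a log2 intensity of 5 on at least 3 of the 9 arrays. RAD51AP2 did not reach that value on any array, and further genes of the same families were not analysed here. Of the 45 tested genes, 20 act mainly in S phase and 18 mainly in repair. The other 7 matched by symbol and were counted in neither class. Among them is RRM2B, a subunit of an enzyme of nucleotide supply.

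The cells had been exposed for 6 h to 5 nm silver particles (3 arrays), exposed for 6 h to 100 nm silver particles (3 arrays), or left unexposed as controls (3 arrays). Each particle size was given near its own LD50, the dose that kills about as many cells as it spares. Mass doses were not given in the sources used here. Particle sizes were thus compared at doses chosen by LD50, and whether their masses were alike is not known here. Arrays of each group carry the replicate numbers 1 to 3, without a statement that these were separate cultures. The p-values therefore speak only to the spread among these arrays, part or all of which may be technical. EA.hy926 is a tumour hybrid that divides in culture. All 5 endothelial markers measured here averaged 5.98 to 12.4 on the log2 scale in the controls, and the 4 epithelial markers, which include 3 keratins, averaged 5.15 to 10.8. The leukocyte marker CD14 averaged 4.60.

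Before a cell copies its DNA, CDC6 and CDT1 load the ring of MCM2 to MCM7 onto replication origins. In S phase the ring is joined by CDC45 and the GINS proteins, which turns it into the active helicase that opens the fork, and PCNA then holds the polymerases on the template. Most of these genes are transcribed in a burst at the start of S phase under E2F factors. Repair genes are a more varied group, in which recombination and mismatch repair follow replication closely while the Ku proteins and XRCC4, which join broken ends, are used throughout the cell cycle. On bulk arrays, fewer cells in S phase and less RNA per cell cannot be told apart.

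The promoters of 4 S-phase genes are shown because they carry the E2F letters discussed with the results: the 3 marker genes of replication, and CDC6, whose difference lay on the opposite side. Each sequence runs 5' to 3' on the gene's own strand from 200 bases before the annotated start to 20 after it (RefSeq, GRCh38.p14), and capitals mark matches to an E2F motif. The positions are chr20:5126603-5126822 for PCNA and chr7:100101378-100101597 for MCM7, both on the minus strand, and chr20:25407473-25407692 for GINS1 and chr17:40287679-40287898 for CDC6, both on the plus strand.
PCNA: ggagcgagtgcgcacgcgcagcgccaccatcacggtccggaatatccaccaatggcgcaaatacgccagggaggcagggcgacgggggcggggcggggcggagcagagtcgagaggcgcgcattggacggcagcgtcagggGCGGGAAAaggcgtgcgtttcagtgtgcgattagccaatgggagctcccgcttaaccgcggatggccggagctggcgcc
MCM7: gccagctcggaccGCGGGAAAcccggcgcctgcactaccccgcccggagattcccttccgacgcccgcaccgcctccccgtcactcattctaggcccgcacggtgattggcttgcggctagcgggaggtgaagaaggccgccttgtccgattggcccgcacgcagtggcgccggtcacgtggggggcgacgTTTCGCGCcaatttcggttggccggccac
GINS1: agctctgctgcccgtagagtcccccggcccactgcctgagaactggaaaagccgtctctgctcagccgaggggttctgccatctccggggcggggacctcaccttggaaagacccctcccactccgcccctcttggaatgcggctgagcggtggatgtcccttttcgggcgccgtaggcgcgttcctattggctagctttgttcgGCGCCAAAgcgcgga
CDC6: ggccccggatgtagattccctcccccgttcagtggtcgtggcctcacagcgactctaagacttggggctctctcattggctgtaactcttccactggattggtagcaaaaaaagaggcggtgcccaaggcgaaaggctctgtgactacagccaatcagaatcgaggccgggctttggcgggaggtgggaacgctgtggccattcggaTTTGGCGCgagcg

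The values carry a mark that bears on every comparison. Arrays that bear 1 replicate number shared their offsets. Once the group mean was taken off, the 9 pairs of equally numbered arrays had correlations across genes of r = 0.762 to 0.967, and the 18 other pairs of -0.582 to -0.265. The negative values follow from the arithmetic, since the deviations of a group then sum to 0 for each gene. Within a replicate number 46.9% to 57.6% of probe sets held exactly equal values, against at most 0.00373% between other arrays. Among the tested replication and repair genes 5, 6 and 18 had the same value on the 3 arrays of numbers 1, 2 and 3. It was not tested whether the 3 arrays of a number were normalized apart from the rest, and if they were, levels set across numbers carry that step. Differences are therefore given between arrays of the same number, and a difference of exactly 0 is counted apart from the signs.

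In cells exposed to 5 nm silver, most replication genes were lower than in controls by a modest amount. The fitted difference (5 nm minus control, log2) was below 0 for 38 of the 45 genes, 0 for 4 and above 0 for 3, with a median of -0.26. Over all 12155 tested genes 5477 were below 0, 2311 at 0 and 4367 above, with a median of 0. In all 3 replicate numbers the 5 nm array was lower for 20 of the 45 genes (44.4%), against 13.4% of all tested genes. With limma on group means (all 9 arrays, Benjamini-Hochberg adjusted p under 0.05) 0 of the 45 genes passed, against 0.074% of all tested genes, and 0 had an unadjusted p under 0.05, against 201 of all tested genes. With the replicate number as a block, which takes out the offsets shared by arrays of a number, 1 gene passed as lower (MCM7), against 0.354% of all tested genes. At an unadjusted p under 0.05 this fit had 16 of the 45 genes lower and 1 higher, against 1073 and 666 of all tested genes.

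MCM7, a subunit of the helicase ring, was measured at log2 intensities of 10.55, 10.07 and 9.55 in 5 nm cells (numbers 1, 2 and 3), 10.79, 10.41 and 9.76 in 100 nm cells, and 10.84, 10.47 and 9.85 in controls. The 5 nm array was the lowest of its number each time, although the groups overlapped because the numbers differed by up to 1.03 log2 units within a group. Relative to controls MCM7 fell by 0.33 ± 0.028 in 5 nm cells (SE of the block fit, n = 3 per group), to 79.3% of the control level, with an adjusted p of 0.0340 in limma with the replicate block and 1 without it. The 95% interval of the block fit ran from -0.41 to -0.26. The call was lost when any 1 of the control arrays was left out (adjusted p 0.195 to 0.226), when any 1 of the 100 nm arrays was left out (0.116 to 0.147), and when the 5 nm array of number 1 was left out (0.0691).

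PCNA was measured at 11.23, 9.84 and 10.58 in 5 nm cells, 11.68, 10.98 and 10.92 in 100 nm cells, and 11.72, 10.94 and 10.92 in controls. The 100 nm and control arrays lay close together in each number and the 5 nm array lay below both. The difference from controls was -0.49, -1.10 and -0.34 in numbers 1, 2 and 3, or 64.1% of the control level on average. It did not pass the test (mean -0.64, block SE 0.188, block adjusted p 0.256 in limma). FEN1, the flap nuclease that trims Okazaki fragments, differed by -0.23, -0.61 and 0.

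**Figure D1:**
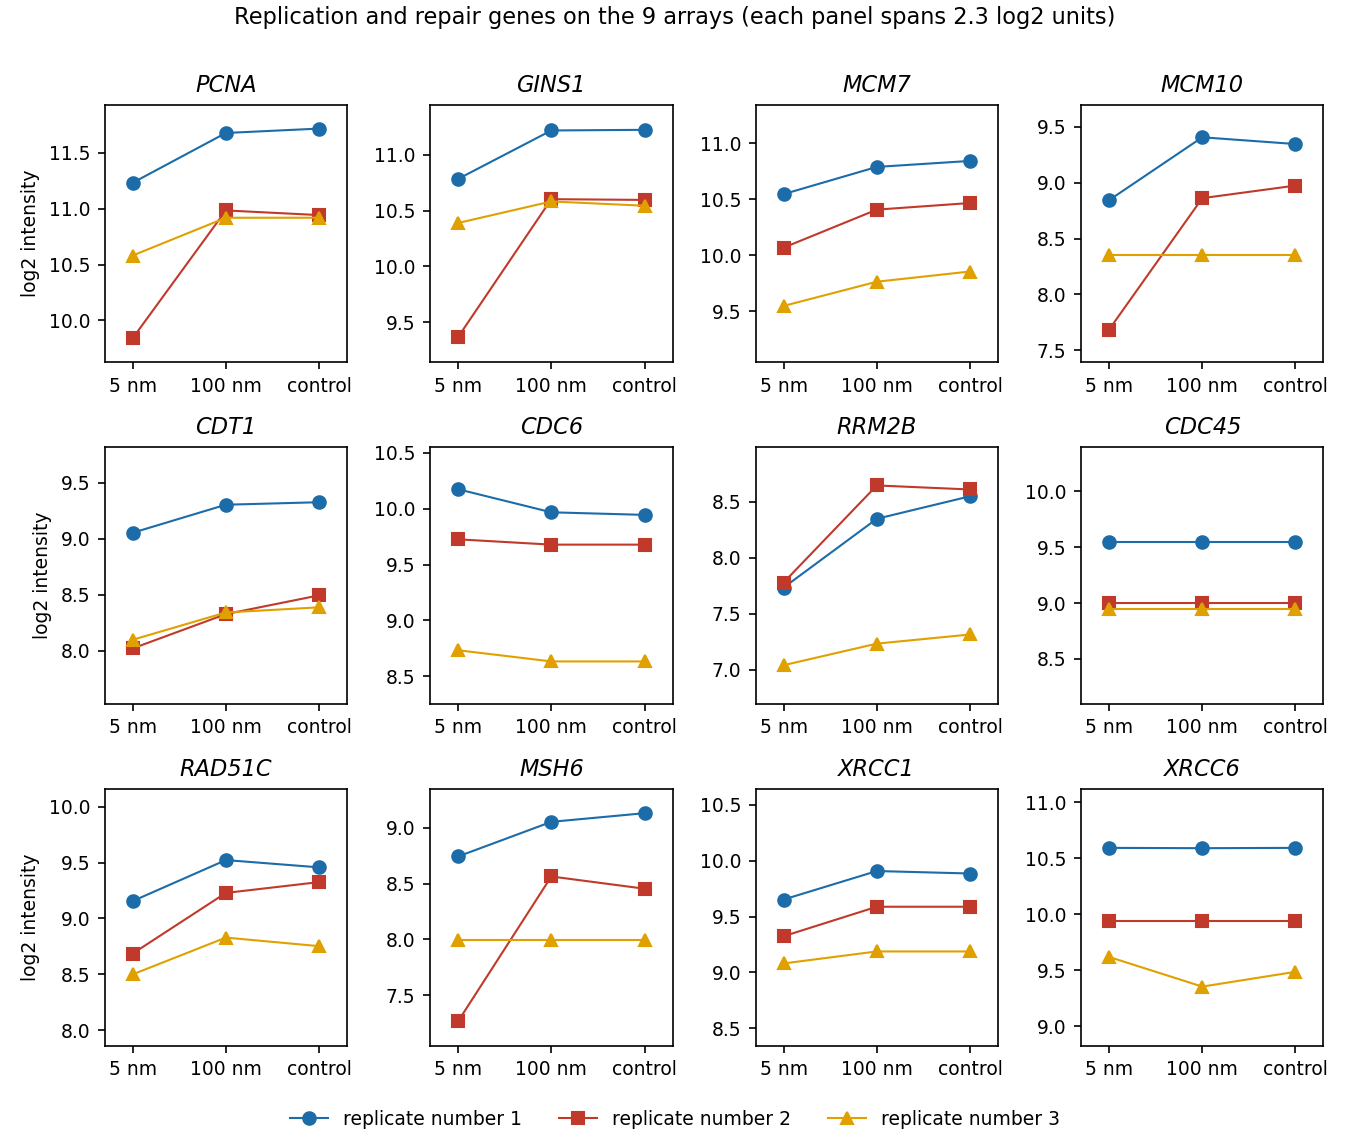
Log2 intensity (vertical axis) of 12 replication and repair genes in 5 nm, 100 nm and control cells, 1 point per array, with lines joining arrays of the same replicate number. PCNA, GINS1, MCM7, CDT1, RRM2B, RAD51C and XRCC1 were lowest in the 5 nm array of each number, CDC6 was highest there, and CDC45 was equal in all groups of a number.

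The helicase and the proteins that switch it on made up the largest role group. Of its 13 genes 12 were lower in 5 nm cells than in controls and 10 of them in all 3 numbers, with a median of -0.33. These 10 were MCM2 to MCM7, GINS1, GINS2, GINS3 and CDC7, the kinase that triggers the loaded ring. GINS1, part of the GINS complex, was measured at 10.78, 9.37 and 10.39 in 5 nm cells, 11.22, 10.60 and 10.58 in 100 nm cells, and 11.22, 10.60 and 10.54 in controls. Its difference from controls was -0.44, -1.23 and -0.15 (block adjusted p 0.347 in limma), and the 5 nm array of number 2 stood lowest of all 9. MCM10, which helps the helicase to start unwinding, was measured at 8.84, 7.69 and 8.35 in 5 nm cells, 9.41, 8.86 and 8.35 in 100 nm cells, and 9.35, 8.97 and 8.35 in controls. In number 3 its 3 arrays held the same value. CDC45 had the same value in all groups of a number, 9.55, 8.998 and 8.95 for numbers 1, 2 and 3, so that it differed by 0 each time. A difference of exactly 0 does not show that the transcript kept its level.

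The pair of origin licensing factors went apart. CDT1 was measured at 9.05, 8.02 and 8.10 in 5 nm cells, 9.30, 8.33 and 8.34 in 100 nm cells, and 9.33, 8.49 and 8.39 in controls. The 5 nm array was lowest in each number, by -0.27, -0.48 and -0.29 against the control, and its block adjusted p in limma was 0.0720. CDC6 was measured at 10.17, 9.73 and 8.73 in 5 nm cells, 9.97, 9.68 and 8.63 in 100 nm cells, and 9.94, 9.68 and 8.63 in controls. It was the one gene of the 45 that was higher in 5 nm cells in all 3 numbers, by 0.23, 0.047 and 0.10, against 8.03% of all tested genes that were higher in all 3. The CDC6 difference did not pass the test (mean 0.13, block SE 0.039, block adjusted p 0.278 in limma).

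All 3 enzymes that supply DNA building blocks had a fitted difference below 0 in 5 nm cells relative to controls, with a median of -0.13. TYMS, which makes thymidylate, was measured at 10.96, 10.37 and 10.46 in 5 nm cells, 11.24, 10.89 and 10.47 in 100 nm cells, and 11.30, 10.88 and 10.47 in controls. The 5 nm value of number 3 lay almost on the other values of that number. RRM2, the S-phase small subunit of ribonucleotide reductase, differed from controls by -0.12, -0.24 and -0.049, and RRM1, the large subunit, by -0.075, -0.21 and 0. RRM2B, the alternative small subunit that p53 induces, was counted in neither class and had a larger difference. It was measured at 7.73, 7.78 and 7.04 in 5 nm cells, 8.35, 8.65 and 7.23 in 100 nm cells, and 8.55, 8.61 and 7.31 in controls. Its difference from controls of -0.82, -0.83 and -0.27 corresponded on average to 64.1% of the control level and had a block adjusted p of 0.178 in limma.

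Recombination genes were lower on average, and 8 of them were at 0 in number 3. Of 11 such genes 10 were below 0 in the fit and 3 were lower in all 3 numbers, with a median of -0.17. RAD51C, a relative of the strand exchange protein, was one of these. It was measured at 9.15, 8.69 and 8.50 in 5 nm cells, 9.52, 9.23 and 8.83 in 100 nm cells, and 9.46, 9.32 and 8.75 in controls, so that the 5 nm array was the lowest of each number, by -0.30, -0.64 and -0.25 against the control (block adjusted p 0.147 in limma). The others were RAD50, a component of the complex that senses broken ends, and XRCC2, another relative of the exchange protein. RAD54L, a motor that remodels the exchange filament, differed by -0.26, -1.07 and 0. The helicase pair MCM8 and MCM9, which act in recombination despite their names, had fitted differences from controls of -0.065 and 0.

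The 3 MSH genes grouped under mismatch repair were lower in 5 nm cells than in controls in numbers 1 and 2. In number 3 they were at exactly 0. MSH6, which recognises base mismatches, was measured at 8.74, 7.27 and 7.999 in 5 nm cells, 9.05, 8.56 and 7.999 in 100 nm cells, and 9.13, 8.45 and 7.999 in controls. Its 3 arrays of number 3 were equal, as were those of MSH3 and MSH5. The difference of MSH5, a gene known for meiotic recombination, was -0.19, -0.99 and 0. A readthrough transcript, MSH5-SAPCD1, differed by -0.42, -0.81 and -0.033, but it overlaps MSH5 and the probe sets cannot separate the genes with certainty.

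Genes for end joining stood near 0. XRCC6 and XRCC5, the Ku subunits that bind broken ends, had fitted differences from controls of 0.044 and 0.013, and XRCC4, the partner of the end joining ligase, had 0 in all 3 numbers. XRCC6 was measured at 10.59, 9.94 and 9.62 in 5 nm cells, 10.59, 9.94 and 9.35 in 100 nm cells, and 10.59, 9.94 and 9.48 in controls. The groups thus differed mainly in number 3. In number 1 the 100 nm array differed from the control by -0.0029, and in number 2 all were equal. XRCC1, the scaffold of single-strand break repair, was the exception of these 4 genes. It was measured at 9.65, 9.32 and 9.08 in 5 nm cells, 9.91, 9.59 and 9.19 in 100 nm cells, and 9.89, 9.59 and 9.19 in controls, a difference from controls of -0.23, -0.26 and -0.11 (block adjusted p 0.133 in limma).

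**Figure D2:**
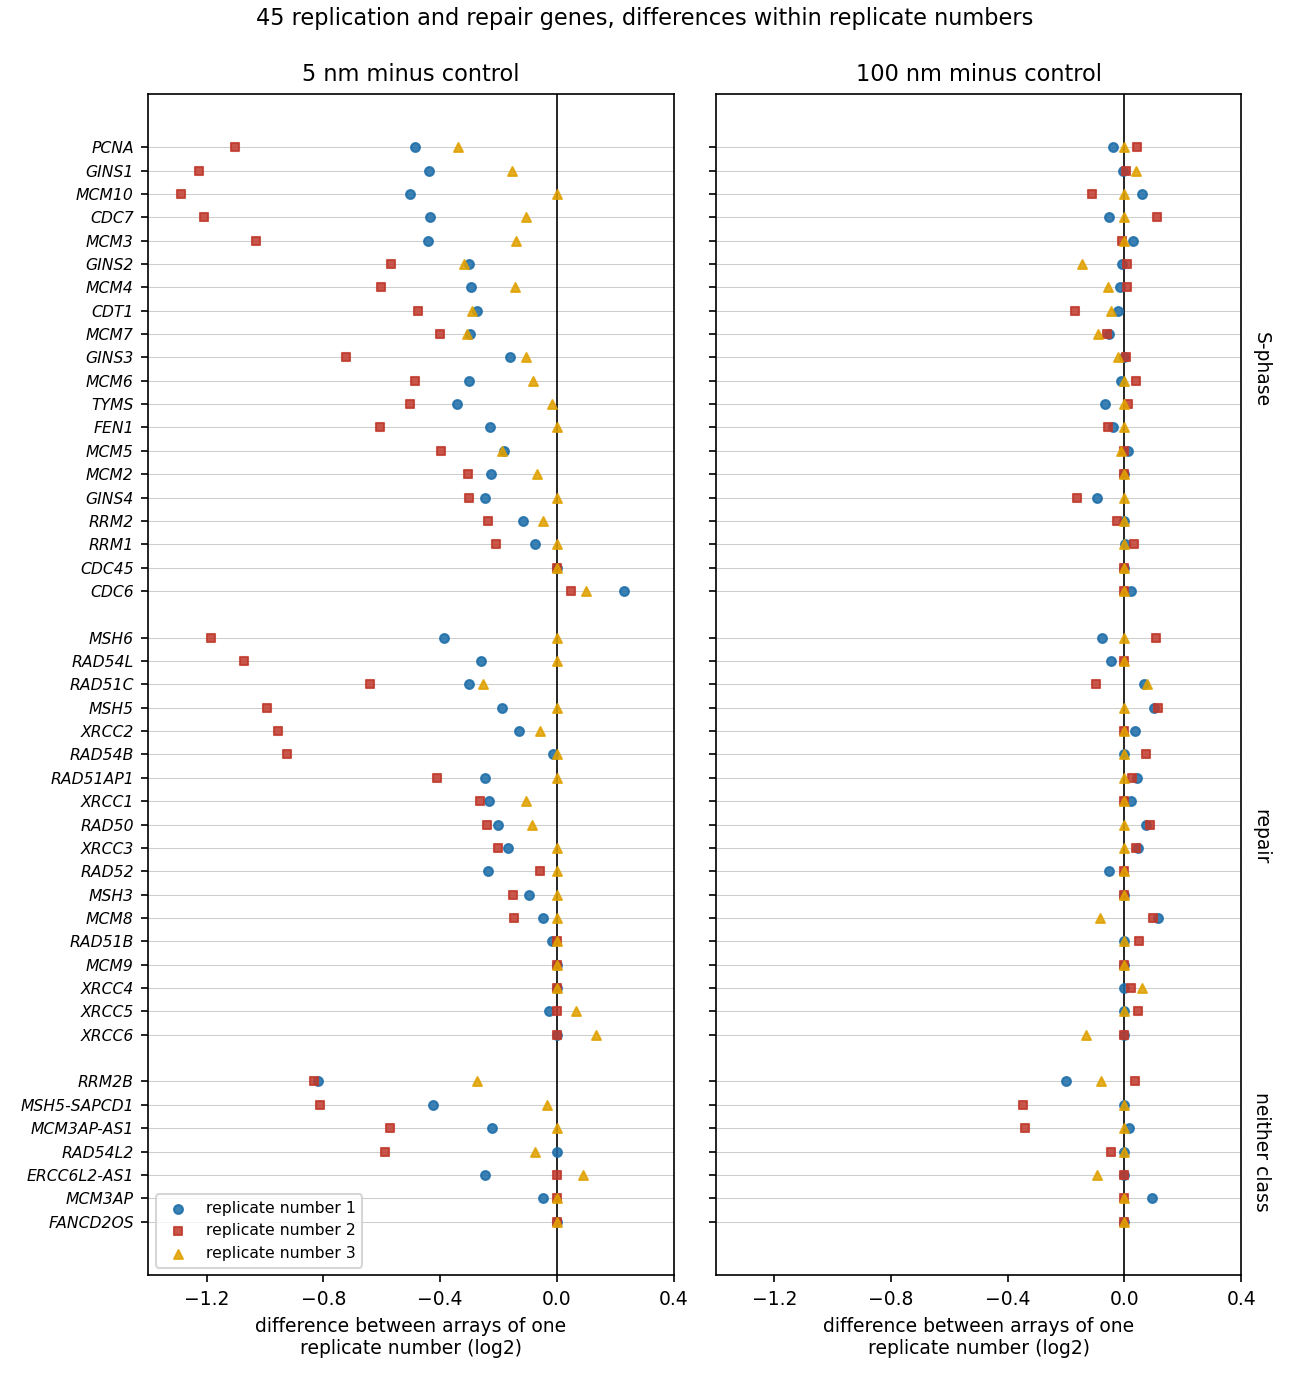
Differences of the 45 tested genes between arrays of the same replicate number on the log2 scale (horizontal axis), for 5 nm minus control on the left and 100 nm minus control on the right, 1 point per replicate number. Genes are grouped as S-phase, repair and neither class and sorted by their fitted 5 nm difference. In the left panel 20 genes lie below 0 in all 3 numbers, and in the right panel 2 do.

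The classes were then set side by side, as S-phase genes against repair genes within each replicate number. In 5 nm cells the S-phase median was -0.28, -0.50 and -0.093 relative to controls in numbers 1, 2 and 3, and the repair median was -0.15, -0.22 and 0. The S-phase median was therefore the lower in each number, by -0.13, -0.27 and -0.093, with a mean of -0.17 ± 0.095 (SD over 3 numbers). Of the S-phase genes 18 of 20 had a fitted difference below 0 and 14 were lower in all 3 numbers (70%). Of the repair genes 14 of 18 were below 0 and 4 were lower in all 3 numbers (22.2%). Over all tested genes 13.4% were lower in all 3 numbers. The repair count of 4 and the repair median of 0 in number 3 rest on exact ties. In number 3, 12 of the 18 repair genes were at exactly 0, 4 were lower and 2 higher. Of the 20 S-phase genes 5 were at exactly 0 there, 14 were lower and 1 higher. In numbers 1 and 2 the 5 nm array was lower for 15 and 13 repair genes, and for 18 and 18 S-phase genes. No test was made of the difference between classes, since their members were chosen with results of these arrays known.

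**Figure D3:**
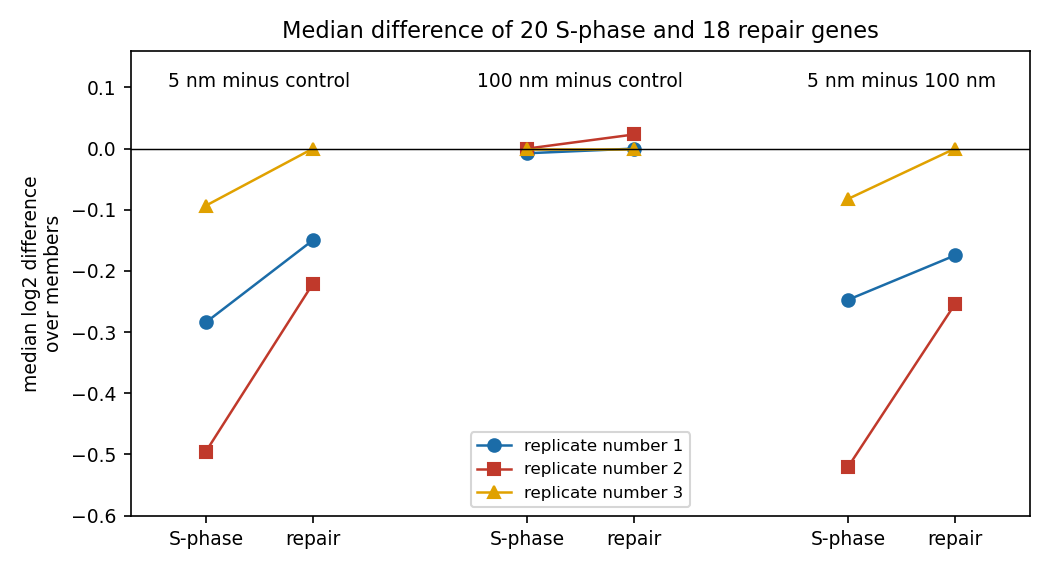
Median log2 difference over the 20 S-phase and the 18 repair genes (vertical axis) for each replicate number, joined within a number, in the comparisons of 5 nm with control, of 100 nm with control and of 5 nm with 100 nm. Both comparisons of 5 nm cells have the S-phase median below the repair median in each number, while all medians of 100 nm minus control lie between -0.0076 and 0.023.

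The replicate numbers did not contribute alike. In number 2 a total of 7 of the 45 genes were at least halved in 5 nm cells relative to the control (PCNA, GINS1, MCM10, CDC7, MCM3, MSH6 and RAD54L), against 0 in number 1 and 0 in number 3. Over all tested genes 143 were at least halved in number 2, against 1 in number 1 and 2 in number 3. In number 3 the difference was exactly 0 for 20 of the 45 genes, among them 5 of the 20 S-phase genes and 12 of the 18 repair genes. By the class medians, number 2 thus held the largest differences and number 3 the smallest, and the part of the arrays' processing in this was not tested.

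In cells exposed to 100 nm silver the same genes lay close to the control values on average. The fitted difference (100 nm minus control, log2) was below 0 for 18 genes, 0 for 5 and above 0 for 22, with a median of 0 and a range from -0.12 to 0.072. In limma 0 of the 45 genes passed without the replicate block and 0 with it, and so did 0% of all tested genes in either fit. At an unadjusted p under 0.05 there were 0 of the 45 genes in either fit. Over all tested genes 0 had such a p without the block, and with it 20 were lower and 13 higher. The 100 nm array was lower than the control in all 3 numbers for 2 of the 45 genes (4.44%), against 1.41% of all tested genes. These were MCM7, by -0.053, -0.059 and -0.091, and CDT1, by -0.022, -0.17 and -0.046. PCNA differed by 0.0007 on average, with a 95% interval of the block fit from -0.50 to 0.50, and GINS1 by 0.013, with an interval from -0.64 to 0.67, so that a difference as large as that of 5 nm cells lay outside the interval for PCNA and inside it for GINS1. The S-phase median minus the repair median was -0.0076, -0.023 and 0 in numbers 1, 2 and 3.

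The direct comparison of the particle sizes gave values near those of 5 nm minus control, with which it shares the 5 nm arrays. The fitted difference (5 nm minus 100 nm, log2) was below 0 for 40 of the 45 genes, 0 for 3 and above 0 for 2, with a median of -0.24. The 5 nm array was the lower in all 3 numbers for 20 genes (44.4%), against 13% of all tested genes. In limma 0 of the 45 genes passed without the replicate block, against 0.0658% of all tested genes, and 0 passed as lower with it, against 0.329%. MCM7 came nearest, with -0.24, -0.34 and -0.22 in numbers 1, 2 and 3 and a block adjusted p of 0.0539. PCNA differed by -0.45, -1.14 and -0.34, CDT1 by -0.25, -0.31 and -0.24, and CDC6 by 0.21, 0.047 and 0.10. The S-phase median was the lower of the class medians in each number, by -0.073, -0.27 and -0.082.

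Genes that act beside these ones were read from wider lists. In 5 nm cells relative to controls none of their tested genes passed limma without the block, against 0.074% of all tested genes. Over all 12155 tested genes 5477 had a fitted difference below 0, with a median of 0. Of 20 tested regulators of entry into S phase 18 were lower, with a median of -0.18. The E2F family repressor E2F8 differed by -0.81, -2.12 and -0.48, and FBXO5, which restrains the anaphase promoting complex, by -0.70, -1.69 and -0.18. Of 20 further replication genes 17 were lower, with a median of -0.17. Among them TICRR, which helps to fire origins, differed by -0.59, -1.39 and -0.43, and TOP2A, the topoisomerase that untangles sister chromatids, by -0.55, -1.05 and -0.35. Of 36 damage signalling and further repair genes 27 were lower, with a median of -0.11, with NEIL3, a glycosylase of replicating cells, at -0.62, -1.46 and -0.35, and BRIP1, a helicase of crosslink repair, at -0.57, -1.17 and -0.083.

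Genes of mitosis had a lower median than the replication genes, a difference that was not tested. All 24 tested genes of that list were below 0 in 5 nm cells relative to controls, with a median of -0.54. Of these, 21 were lower in all 3 numbers (87.5%), against 13.4% of all tested genes. Within numbers 1, 2 and 3 the mitosis median was -0.51, -0.85 and -0.22, against -0.28, -0.50 and -0.093 for the S-phase genes. CCNA2, the cyclin of S phase and mitotic entry, differed by -0.70, -1.45 and -0.52, and the proliferation marker MKI67 by -0.64, -1.36 and -0.39. PRC1, which bundles the spindle midzone, fell by 0.20 in limma with the replicate block (adjusted p 0.0237), with -0.19, -0.21 and -0.19 in the 3 numbers. It had an adjusted p of 1 without the block. With the block PRC1 was the 1 gene of the 24 that passed as lower, against 0.354% of all tested genes. The PRC1 call was lost in 11 of 18 alternatives of the block fit, among them each control array (adjusted p 0.138 to 0.174) or 100 nm array (0.0548 to 0.112) left out, the 5 nm array of number 1 left out (0.0511), and only the groups compared (0.258). For 5 nm minus 100 nm PRC1 also passed limma with the block (adjusted p 0.0241) and did not pass without it. Alternatives of that call are not given here. In 5 nm cells relative to controls 9 of the 11 tested p53 targets were lower, with a median of -0.39. That list holds RRM2B too. Without RRM2B 8 of 10 were lower, with a median of -0.29. Its member PMAIP1, a pro-apoptotic protein, had 1.00, 2.34 and 0.79 in the 3 numbers (block adjusted p 0.212 in limma), and SESN1, a stress-induced sestrin, had -0.42, -1.27 and -0.38. In 100 nm cells relative to controls the medians of all 5 lists lay between -0.030 and 0.0058.

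Promoters were searched for letters that E2F factors and cell cycle complexes are known to bind. The E2F motif was TTTCCCGC, TTTGGCGC, TTTCGCGC or TTTGCCGC on either strand, from 250 bases before the annotated start to 50 after it, and 38 of the 45 genes had a promoter in the RefSeq table. It was present in 11 of 17 S-phase promoters (64.7%) and in 5 of 16 repair promoters (31.2%), against 4.85% of the 9178 promoters of tested genes and 3.33% of all 27305 promoters in the table. TTTGGCGC and TTTCGCGC run into their own reverse complement in TTTGGCGCCAAA and like runs, so neighbouring matches on opposite strands in MCM2, MCM6 and MSH3 share letters. Of the 11 S-phase genes with a match, 10 have one between 60 bases before the start and 50 after it. The promoters of PCNA, GINS1 and CDC6 hold 1 match each, at -59, 6 and 8 bases from the start, and that of MCM7 holds matches at -187 and -9. The E2F letters of MCM7 at -9 share 1 base with a CCAAT match. A match in these windows is a description of the letters and not of bound factors.

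**Figure D4:**
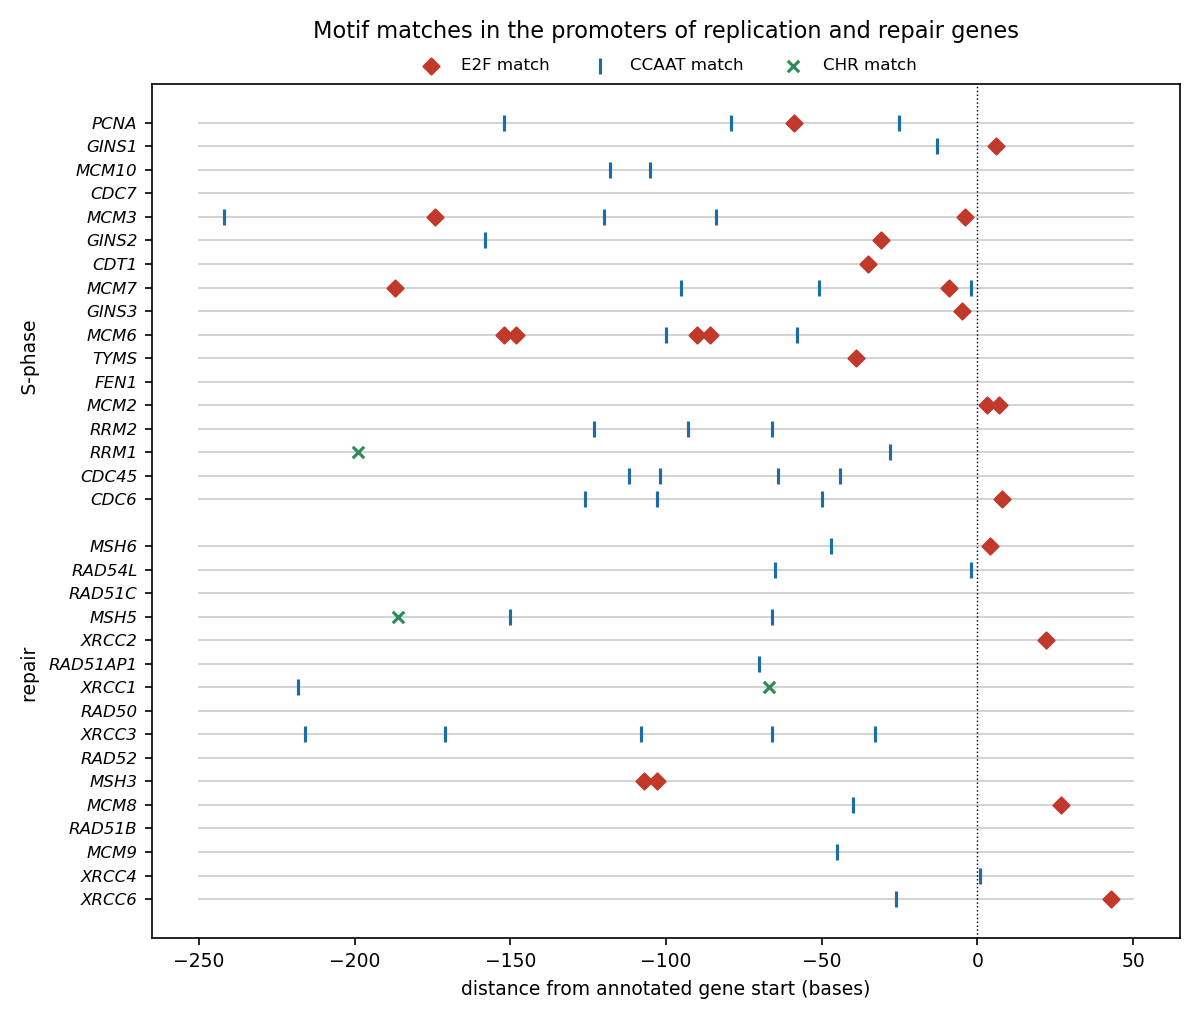
Positions of motif matches relative to the annotated start (horizontal axis, bases) in the promoters of 17 S-phase and 16 repair genes, sorted within each class by fitted 5 nm difference. Diamonds are E2F matches, bars CCAAT matches and crosses matches to the cell cycle homology motif (CHR), and most E2F matches of S-phase genes lie close to the start.

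Genes with and without the E2F letters were then set side by side, with no test. S-phase genes with a match had a median fitted difference (5 nm minus control) of -0.33 and 10 of 11 were lower in all 3 numbers, against a median of -0.21 and 2 of 6 for S-phase genes without one. CDC6, the remaining gene with a match, was the one that was higher. S-phase genes without a match ranged from -0.60 to 0. Among them CDC45, FEN1, MCM10 and RRM1 were at exactly 0 in number 3, so that the count in all 3 numbers rests on such ties. MCM4, MCM5 and GINS4 had no promoter in the table and were left out. Repair genes with a match had a median of -0.081 and 1 of 5 was lower in all 3 numbers, against -0.17 and 3 of 11 without one. CCAAT on either strand was present in 64.7% of S-phase and 62.5% of repair promoters, against 35.9% of the promoters of tested genes. The CHR letters TTTGAA were present in 5.88% of S-phase and 12.5% of repair promoters, against 10.4%.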

How the data were processed

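Per the labels' protocols, biotin-labelled cDNA from 300 ng of total RNA was hybridised to 9 Affymetrix whole-transcript arrays. Per the submitters' processing notes, the authors summarised them by RMA using Affymetrix Expression Console 1.3.1, and log2 intensities of 53617 probe sets were deposited. The notes do not say whether all 9 arrays were summarised together; the equal values within replicate numbers would also arise from summarising 3 at a time, in which case levels across numbers, ranges within groups and the fit without the block include offsets of that step. The genome build behind the probe sets was not given in the sources used here. A single gene symbol was annotated for 16098 probe sets, updated by Entrez identifier, and 37519 (70.0%) were unnamed here. A gene was represented by its probe set of highest mean. The median log2 value per array was 5.15 to 5.64, and 10764 to 11944 genes per array reached 5. The number of arrays limits the precision.

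Groups were compared by lmFit and eBayes of limma 3.58.1 (R 4.3.3) on all 9 arrays and all tested genes, checked on simulated data. The deviations of same-numbered arrays given in the report all correlated above 0.1. Each of the 9 arrays was most like one of its own number, so the replicate number from the labels pairs the arrays. Counts of calls are given with and without the number as a block. Adjusted p-values of single genes come from the block fit unless stated. Without the block none of the 45 genes passed. The block fit gave 1634 of the 12155 genes no spread within numbers.

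The members and lists were chosen with earlier results of these data known. Genes named with values were the 3 markers, members past the threshold in the fit on all 9 arrays with or without the block, and in each role group the 2 most negative and the 1 most positive for 5 nm minus control, with the list genes past the threshold and the 2 of largest absolute difference per list. RAD50, XRCC2, MCM2 to MCM6, MCM8, CDC7, GINS2, GINS3 and XRCC5 fall outside that rule and were named after their values were seen. Alternatives were the block, 2 normalizations, 2 filters, the mean of probe sets, another variance prior, only the groups compared, and leaving out arrays.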

Additional observations from a re-analysis of the deposited data

How the results depend on the processing

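The fit without a block gave 0 called replication or repair genes under every alternative run except the replicate block, which gave 1 for 5 nm minus control. With the block, the count for 5 nm minus control ranged from 0 to 5 as arrays were left out, was 2 with genes of no spread left out, 2 with quantile normalization and 0 with only the groups compared. The 5 without the 5 nm array of number 3 were MCM2, MCM7, RRM2B, XRCC1 and XRCC3, and the 2 without that of number 2 were MCM5 and MCM7. With all 3 arrays of a number left out the block adjusted p of MCM7 in limma was 0.330, 0.0881 and 0.204 for numbers 1, 2 and 3, and 0.548 with only the groups compared. For 5 nm minus 100 nm the count with the block ranged from 0 to 6 as arrays were left out, and was 1 with genes of no spread left out, 2 with quantile normalization and 1 with the filter at 6. Fits with the block and a further change were chosen after seeing the data.

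Over all tested genes, the 9 calls of 5 nm minus control became 79 with the replicate block, 19 with quantile normalization, 15 with the filter at 6, and 6 to 15 with an array left out (15 without the 5 nm array of number 3). The 79 became 219 with genes of no spread left out, 226 with quantile normalization, 141 with the filter at 6, 0 with only the groups compared and 0 to 446 with arrays left out. The 8 of 5 nm minus 100 nm became 75 with the block, 21 with quantile normalization, 15 with the filter at 6, 13 with a trended robust prior and 6 to 19 with an array left out (19 without the 5 nm array of number 3).

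The S-phase median stayed below the repair median for 5 nm minus control and 5 nm minus 100 nm in each alternative. Leaving out the filter and taking the mean of probe sets left these medians unchanged, so they add nothing to that result. For 100 nm minus control the mean over members gave -0.031 in place of -0.010. Quantile normalization put the repair median of number 3 at 0.019 in place of 0 for 5 nm minus control.

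Leaving out 1 array without the block leaves the groups with unequal replicate numbers, whose levels differ, and it turned 16 uncalled single-gene values. For 5 nm minus control these ranged from -0.27 to 0.53 for CDC6, -0.29 to 0.087 for MSH3, -0.61 to 0.0017 for MSH5, -0.42 to 0.18 for RRM1, -0.43 to 0.12 for RRM2 and -0.23 to 0.34 for XRCC6. For 100 nm minus control they ranged from -0.20 to 0.23 for GINS1, -0.34 to 0.21 for MCM7 and -0.24 to 0.26 for PCNA. For 5 nm minus 100 nm they ranged from -0.28 to 0.52 for CDC6, -0.60 to 0.056 for CDT1, -0.29 to 0.087 for MSH3, -0.44 to 0.17 for RRM1, -0.42 to 0.13 for RRM2, -0.35 to 0.28 for XRCC4 and -0.22 to 0.40 for XRCC6. XRCC4 was 0.0024 with quantile normalization and 0.0010 with centred arrays. With 3 arrays per group and values equal within numbers, small differences could not be resolved.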
